A study of Mus musculus with 20 samples.

Results

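The MCM helicase and origin licensing genes are Mcm2, Mcm3, Mcm4, Mcm5, Mcm6, Mcm7, Cdc6, Cdt1, Gins1 and Gins2. Their members in these data are the H3K4me3 regions that the authors' annotation names for 1 of these 10 genes, and the H3K4me1 regions that share at least 1 bp with them. They came to 12 of 22343 H3K4me3 regions and to 12 of 117165 H3K4me1 regions with values in both lines. Each of the 10 genes had an H3K4me3 region over its transcriptional start site (TSS), and Mcm3 and Gins2 had a second, upstream region.

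ChIP-seq of H3K4me3 and H3K4me1 followed the loss of Ash2l, a core subunit of the KMT2 complexes that methylate histone H3 at lysine 4, in mouse embryo fibroblasts. The KO cells carried Ash2l fl/fl and Cre-ER, a Cre recombinase that 4-hydroxytamoxifen (HOT) activates to delete exon 4 of Ash2l. +HOT cells received 5 nM HOT and -HOT cells the ethanol vehicle, both for 5 days. KO1 (iMEF1) and KO2 (iMEF2) came from different litters and were immortalized with an shRNA against p19Arf, which -HOT cells carry too. Each mark had 1 library per line and condition, so that a line is 1 replicate (n = 2). The p-values measure only the spread between the lines, which for H3K4me3 was pooled over all tested regions and for H3K4me1 was drawn mostly from them. WT cells, which would show an effect of HOT without the floxed alleles, were not used here.

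Before S phase, the origin recognition complex, Cdc6 and Cdt1 load the ring of Mcm2 to Mcm7 onto DNA as an inactive double hexamer, a step called licensing. At firing, Cdc45 and the GINS complex join the ring and turn it into the active helicase that opens the replication fork. The genes are transcribed in proliferating cells, many under E2F transcription factors, and are low in cells that have left the cycle. H3K4me3 marks the promoters of transcribed genes, while H3K4me1 is usually found beside them and at enhancers.

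The promoter sequences of the members were searched for motifs. The window from 250 bases before to 50 bases after the TSS of the annotation was searched on both strands in mm9 for the E2F motif, spelled TTTCCCGC, TTTCGCGC, TTTGCCGC or TTTGGCGC. Matches were present in 8 of the 10 member promoters, all but Mcm2 and Mcm7, against 4.12% of 12706 promoters with an H3K4me3 region. The following stretches are shown because they hold the E2F matches of the members, in capitals, and a RefSeq promoter (GRCm38.p6) of the same gene holds the same letters in each case. RefSeq promoters were given for 7 of the 10 members, Mcm4, Gins1 and Gins2 being the others. Each stretch is written 5′ to 3′ on the strand of its gene, in the order Mcm3 (chr1:20810347-20810375, minus strand, in the first exon), Mcm5 (chr8:77633235-77633286, plus strand), Mcm6 (chr1:130256302-130256412, minus strand), Mcm7 (chr5:138613258-138613287, minus strand), Cdc6 (chr11:98769307-98769354, plus strand) and Cdt1 (chr8:125091936-125091964, plus strand, in the first exon).
Mcm3: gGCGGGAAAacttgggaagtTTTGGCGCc
Mcm5: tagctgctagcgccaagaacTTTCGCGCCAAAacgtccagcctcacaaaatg
Mcm6: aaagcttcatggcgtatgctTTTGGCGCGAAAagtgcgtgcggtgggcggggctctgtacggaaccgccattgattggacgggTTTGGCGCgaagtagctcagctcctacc
Mcm7: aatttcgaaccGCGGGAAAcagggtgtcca
Cdc6: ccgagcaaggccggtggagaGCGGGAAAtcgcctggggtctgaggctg
Cdt1: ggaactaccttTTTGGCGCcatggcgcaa

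Positions of the matches are counted from 0 at the first transcribed base. Mcm5 holds 2 matches that overlap on opposite strands, from -153 to -142, and Mcm6 holds such a pair from -110 to -99 and a further match from -47 to -40. Cdc6 holds 1, on the minus strand, from -138 to -131. In Mcm3 and Cdt1 the matches lie downstream of the TSS, from 19 to 45 and from 32 to 39. Mcm4 has matches from -224 to -217 and from -78 to -71, Gins2 from -17 to -10, and Gins1 an overlapping pair from -9 to 2.

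Mcm7 depends on which start is taken. The annotation places its TSS at position 138612494, where the window holds no E2F match, while a second RefSeq start lies 617 bp upstream. Around that start there is a match from -165 to -158, which is the one shown, and another from 16 to 23. The stretch shown for Mcm7 also overlaps an annotated exon, and the gene Ap4m1 starts at -119 bp on the other strand. In RefSeq promoter windows of the same length, 704 of 27025 genes (2.60%) hold a match at any start. Of the 7 members with RefSeq promoters, all but Mcm2 do. With the windows of the other annotation added, 9 of the 10 members hold a match, a count that the 2.60% does not match in kind.

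CCAAT, the motif of NF-Y, was found in 8 of 10 members, all but Cdc6 and Cdt1, against 36.8% of the 12706 promoters. GGGCGG, the GC box of Sp1, was found in 6 of 10 members against 68.2%. The median GC content was 59.5% in the members and 62.3% in all promoters, and the median ratio of observed to expected CpG was 0.93 in the members and 0.77 in all. Gins1 (GC 48.3%, CpG ratio 0.47) and Mcm3 (48.7%, 0.45) were poorest in both, and Cdt1 had the highest GC content (66.7%). A match describes the letters only and is not a measured binding site.

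H3K4me3 reads in regions numbered 2441698 and 6978481 in the +HOT libraries and 6116382 and 17708078 in the -HOT libraries of KO1 and KO2, with more reads in KO2. H3K4me1 libraries held between 6157647 and 9048056. Values are scaled reads, the reads counted in a region after the authors had brought the libraries of a line to its lower coverage. H3K4me3 at the Ash2l promoter had 281 (KO1) and 976 (KO2) scaled reads in +HOT cells and 469 and 1839 in -HOT cells (mean log2 ratio -0.82, adjusted p = 0.0417, limma), which does not measure the deletion of exon 4. All 10 fibroblast markers had an H3K4me3 promoter region, and 0 of 5 haematopoietic markers did. Some epithelial (4 of 6), endothelial (2 of 4) and neural markers (2 of 4) had one, with median scaled reads in -HOT cells of KO2 of 148, 370 and 149, against 3652 for the fibroblast markers. In such bulk libraries, a lower mark in every cell and its loss in some of the cells cannot be told apart.

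The promoter H3K4me3 of all 10 members fell in +HOT cells. The fold was tested as the log2 ratio of +HOT to -HOT, on log2(value + 1), with limma and the line as a block, and p-values were adjusted by Benjamini-Hochberg over 16129 regions. Of the promoter regions of all tested genes, 83.9% fell, and of all tested regions 86.5% fell, and 0.0744% of all tested regions rose, so that the count of 10 of 10 does not set the members apart. Their median log2 ratio was -1.37 in KO1 and -1.71 in KO2, against -0.97 and -1.38 over 12214 gene promoters and -1.06 and -1.63 over all tested regions. The members kept 30.0 to 54.4% of their -HOT signal in KO1 and 26.0 to 44.7% in KO2. All 10 fell past a log2 ratio of -0.58 in each line. Without the block for the line, limma passed 0 of the 10 (adjusted p = 0.528 to 0.612), and 0 regions in all.

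Levels were higher in KO2, the line with more H3K4me3 reads in regions. In each line +HOT was below -HOT at every member, while the +HOT value of KO2 was above the -HOT value of KO1 at all 10. The ratios were therefore taken within a line.

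**Figure D1:**
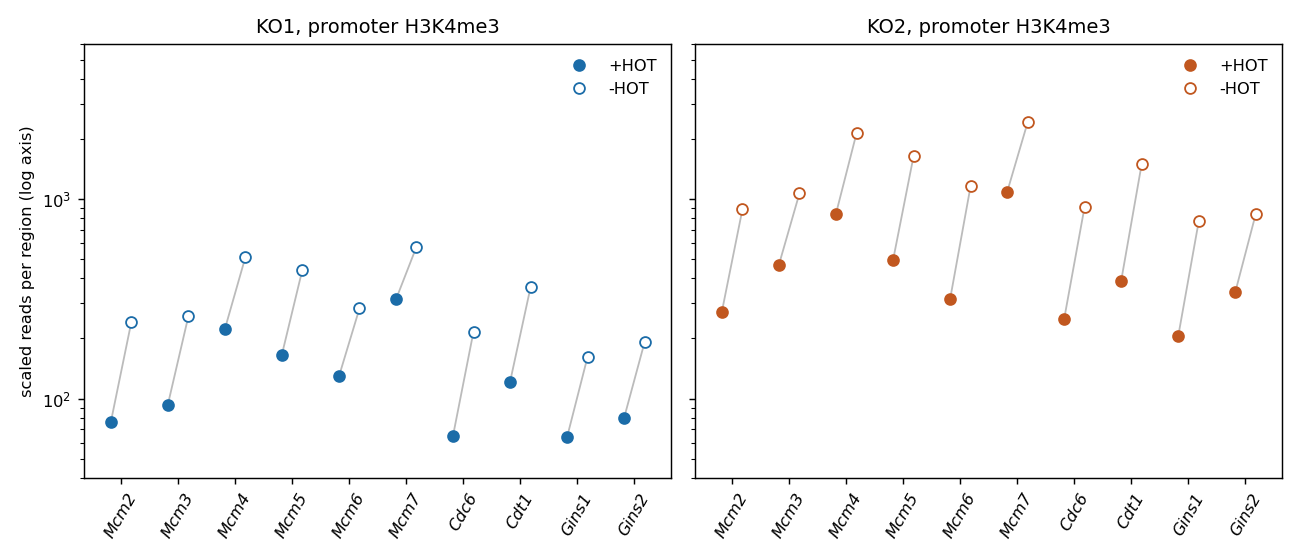
Scaled H3K4me3 reads of the promoter region of each member in KO1 (left) and KO2 (right), on a log axis. Filled points are +HOT and open points -HOT libraries, 1 library each, and a line joins the libraries of 1 gene. In both lines every filled point lies under its open point, from Gins1 (64 against 162 in KO1) to Mcm7 (1083 against 2425 in KO2).

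Mcm2, Mcm4, Mcm6 and Mcm7 all fell in +HOT cells. The Mcm4, Mcm6 and Mcm7 subunits form the part of the ring with helicase activity on its own, and Mcm2 is a subunit that also binds histones. At Mcm2, the region chr6:88847405-88849173 centred in intron 1 had 76 (KO1) and 273 (KO2) scaled reads in +HOT cells, against 242 and 888 in -HOT cells. Its log2 ratios of -1.66 and -1.70 were close to each other (mean -1.68, standard error 0.391, adjusted p = 5.13e-05, limma). limma gave 0.391 as the standard error of every H3K4me3 region, because it pooled the spread of all regions. An adjusted p of H3K4me3 therefore does not show how closely the lines agreed at that gene.

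Mcm4 had a broader region, chr16:15636140-15638961, of 2822 bp, which spans the start of Prkdc, the catalytic subunit of the DNA-dependent protein kinase, at -466 bp on the other strand. It had 223 and 845 scaled reads in +HOT cells of KO1 and KO2, against 512 and 2138 in -HOT cells. The mean log2 ratio was -1.27 (adjusted p = 0.00221, limma), and the values of the region cannot be divided between both genes.

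Mcm6 fell unequally in the lines. Its region chr1:130253905-130256748, centred in intron 1, had 129 and 314 scaled reads in +HOT cells of KO1 and KO2, against 283 and 1160 in -HOT cells. The log2 ratio was -1.13 in KO1 and -1.88 in KO2 (mean -1.50, adjusted p = 0.000279, limma), the widest gap between lines among the members. Counting errors of the ratios were 0.15 and 0.09, but with 1 pair of libraries per line the gap has no replicate check.

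The region of Mcm7 kept the largest share of the mark among the members, though in KO2 it was close to Mcm3 (44.7 and 43.9%). The region chr5:138611118-138614321, at 3204 bp the widest of the set, had 314 and 1083 scaled reads in +HOT cells of KO1 and KO2, against 577 and 2425 in -HOT cells. Its log2 ratios were -0.88 and -1.16 (mean -1.02, adjusted p = 0.0133, limma). The region also spans the start of Ap4m1, an adaptor protein complex subunit on the other strand. That start lies at -736 bp from the annotated TSS of Mcm7 and -119 bp from the second RefSeq start. The values of the region cannot be divided between both genes.

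Mcm3 and Mcm5, the remaining subunits of the ring, each fell in both lines. Mcm5 (chr8:77632574-77634730, centred in exon 2) had 166 and 493 scaled reads in +HOT cells of KO1 and KO2, against 443 and 1640 in -HOT cells, with log2 ratios of -1.41 and -1.73 (mean -1.57, adjusted p = 0.000147, limma). Mcm3 (chr1:20808974-20810458, centred in intron 1) had 93 and 469 against 258 and 1069, with log2 ratios of -1.46 and -1.19 (mean -1.32, adjusted p = 0.00137, limma). Mcm3 was the only member whose ratio was lower in KO1 than in KO2. Its upstream region, chr1:20810636-20810967, is a weak 332 bp stretch with 5 and 16 scaled reads in +HOT cells against 8.25 and 68.3 in -HOT cells, and was not tested because KO1 was under the minimum of 20.

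The loaders Cdc6 and Cdt1 had the lowest mean log2 ratios over the lines among the member promoters, though not the lowest 2 in either line alone. Cdc6, an ATPase that brings the MCM ring to the origin recognition complex, had 65 and 250 scaled reads over chr11:98768619-98770759, centred in intron 1, in +HOT cells of KO1 and KO2, against 217 and 918 in -HOT cells. The log2 ratios were -1.72 and -1.87 (mean -1.80, adjusted p = 1.45e-05, limma). Cdt1, which carries the MCM ring and is held in check by geminin, had 121 and 389 over chr8:125090751-125093521, centred in exon 1, against 362 and 1499, with log2 ratios of -1.57 and -1.94 (mean -1.76, adjusted p = 2.21e-05, limma).

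Gins1 and Gins2 are subunits of GINS, which joins the ring at firing. Gins1 (chr2:150734821-150736107, centred in exon 1) had 64 and 205 scaled reads in +HOT cells of KO1 and KO2, against 162 and 773 in -HOT cells, with log2 ratios of -1.33 and -1.91 (mean -1.62, adjusted p = 9.28e-05, limma). Gins2 (chr8:123111935-123113124, centred in intron 2) had 80 and 341 against 192 and 843, with ratios of -1.25 and -1.30 (mean -1.28, adjusted p = 0.00202, limma). Both regions are short, 1287 and 1190 bp.

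The upstream region of Gins2 fell further than any member promoter. It spans chr8:123113331-123113977, 1002 bp before the TSS at its far end, and the start of the noncoding Gm10614 lies at -456 bp from that TSS on the other strand. It had 10 and 50 scaled reads in +HOT cells of KO1 and KO2, against 57.8 and 294 in -HOT cells, which left 17.3 and 17.0%. The mean log2 ratio was -2.47 (adjusted p = 5.14e-09, limma). Since the region covers the start of Gm10614, its loss cannot be assigned to Gins2.

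**Figure D2:**
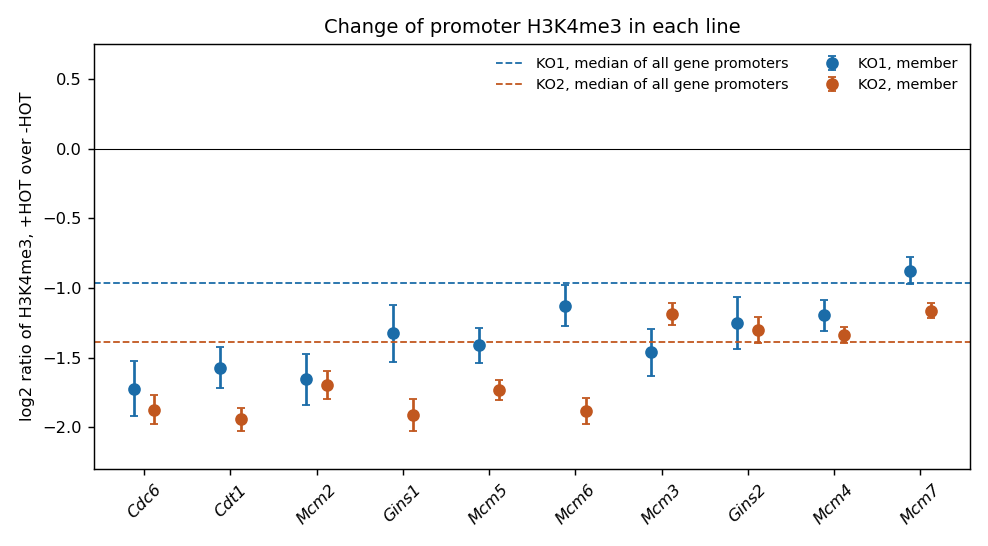
Log2 ratio of promoter H3K4me3, +HOT over -HOT, in KO1 (blue) and KO2 (orange), with the members ordered by their mean. Error bars are counting errors of 1 pair of libraries, and dashed lines are the medians of 12214 gene promoters (-0.97 in KO1 and -1.38 in KO2). The points run from -1.94 (Cdt1, KO2) to -0.88 (Mcm7, KO1).

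The order of the members by mean log2 ratio was Cdc6, Cdt1, Mcm2, Gins1, Mcm5, Mcm6, Mcm3, Gins2, Mcm4 and Mcm7. The ends of this order lay 0.78 apart, while the standard error of a difference between 2 regions from the pooled spread was 0.55. That spread holds the shift between lines that the regions share, which cancels in such a difference, so 0.55 is too wide a measure. With the medians of both lines moved to 0, the standard error of a region was 0.255 in place of 0.391. Differences between members were not tested, so the order is descriptive and neighbours in it are not told apart. In KO1, 9 of the 10 members were under the median of all gene promoters, and in KO2, 6 were. The ratio was lower in KO2 than in KO1 at 9 members, with a median difference between lines of -0.22, against -0.40 over all gene promoters.

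Relative to the typical tested region, no member promoter passed the test. With the medians of both lines moved to a log2 ratio of 0, 0 of the 10 promoter regions passed limma in either direction (adjusted p = 0.147 to 0.960), and Mcm3, Mcm4, Mcm7 and Gins2 then had values of 0.019 to 0.32. On this scale, 16.6% of gene promoters fell and 10.8% rose. The upstream region of Gins2 was the only member region that still passed (log2 ratio -1.13, adjusted p = 0.00016, limma). In KO1 this region met the read minimum through -HOT cells only, with 10 scaled reads in +HOT against 57.8 in -HOT cells. It was not tested where the minimum was required in both conditions, so its call has no check under that rule. The libraries were scaled by coverage with no external standard, so that a shift shared by a whole library and an effect of the scaling cannot be told apart.

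The authors' lists class promoters by their H3K4me3 level as high, medium or low, and no member promoter was low. This level takes in the counts of both -HOT and +HOT cells, so a class is not independent of the ratios compared within it. In KO1, Mcm2 to Mcm7 and Cdt1 were high and Cdc6, Gins1 and Gins2 were medium. In KO2, Mcm4, Mcm5, Mcm7 and Cdt1 were high and the other 6 were medium. The median log2 ratio of all gene promoters was -0.85 in the high and -1.53 in the medium class of KO1, and -1.07 and -2.05 in those of KO2. The high members were all under the median of their class, in KO1 between -1.66 (Mcm2) and -0.88 (Mcm7) and in KO2 between -1.94 (Cdt1) and -1.16 (Mcm7). Of the medium members in KO1, Cdc6 (-1.72) was under and Gins1 (-1.33) and Gins2 (-1.25) were above theirs, and in KO2 all 6 were above.

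Levels between genes were compared per length. In -HOT cells of KO2, H3K4me3 was between 408 (Mcm6) and 760 (Mcm5) scaled reads per kb, and in +HOT cells of KO2 between 110 (Mcm6) and 338 (Mcm7). In KO1 the levels per kb were 30.4 (Cdc6) to 98.0 (Mcm7) in +HOT and 99.4 (Mcm6) to 206 (Mcm5) in -HOT cells. Mcm3, Mcm4, Mcm5, Mcm7 and Gins2 held the upper 5 places in all 4 libraries.

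The 5 genes whose 4 values lay nearest to the medians of the members were Zfp65, Zfp28, Dnajb2, Zfp74 and Alad, at Euclidean distances of 0.05 to 0.10 on the log2 scale over the 4 libraries, and 115 genes lay within 0.25 of those medians. Zfp65, the nearest, had 108 and 358 scaled reads in +HOT cells of KO1 and KO2, against 263 and 1112 in -HOT cells.

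H3K4me1 rose in the same places. The H3K4me1 table had values in both lines over 8 of the genes, while Mcm3 and Mcm6 lie in a stretch of chromosome 1 that is damaged in the KO1 table and had values in KO2 only. Of the 12 regions over those 8 genes, 11 rose and 1 fell in +HOT cells (limma, adjusted over 78691 regions). Among all H3K4me1 regions over a promoter H3K4me3 region, 66.1% rose and 2.94% fell, and among all tested regions 14.8% rose and 2.57% fell. With more than 20 scaled reads required in both conditions of each line, 4 member regions were tested and 4 rose, against 15.1% of all regions tested. The share over promoter H3K4me3 regions was not counted under that rule. The other member regions passed the minimum in at least 1 line through 1 condition only. For those that rose, this condition was +HOT. The median log2 ratio of the 12 was 1.72 in KO1 and 2.14 in KO2, with a median mean ratio of 1.89, against 1.01 over all promoter regions and 0.18 over all tested regions. Most member regions lie wholly inside an H3K4me3 region. Of all such regions at promoters 91.3% rose, with a median of 1.71, so that the count of 11 of 12 does not set the members apart. With the medians moved to 0, 10 of the 12 rose and 1 fell, against 47.5% and 3.44% of regions over promoters and 9.59% and 3.45% of all tested regions.

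**Figure D3:**
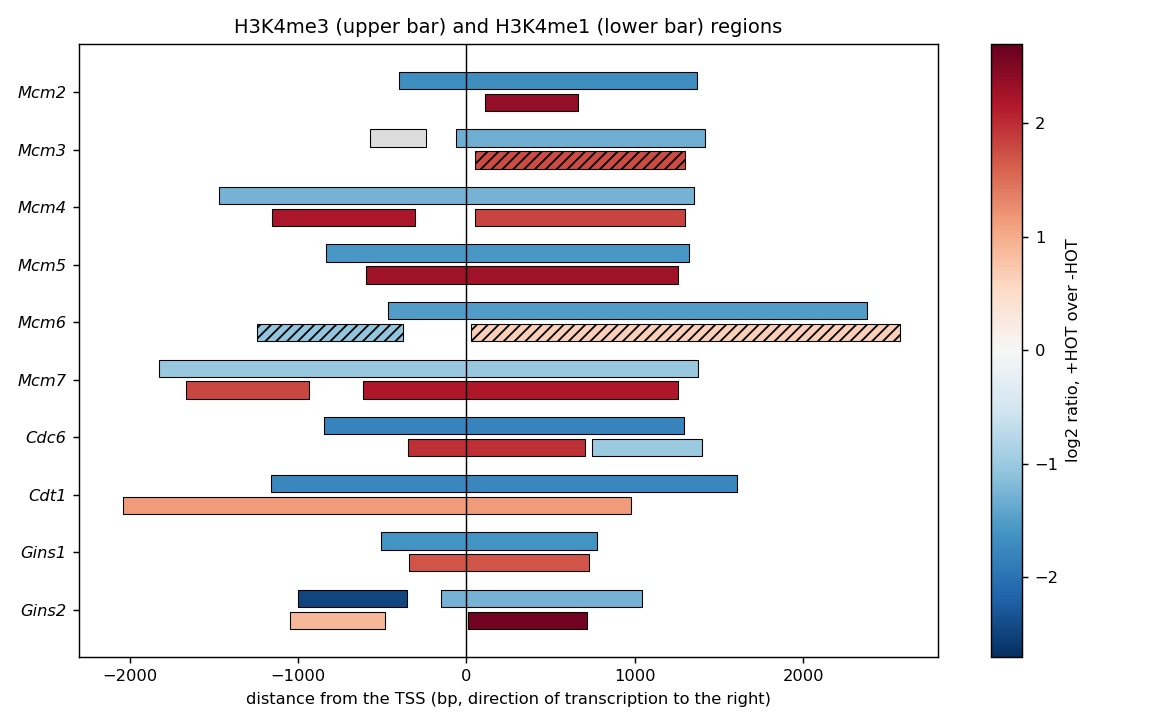
Regions of H3K4me3 (upper bar) and H3K4me1 (lower bar) of each member by distance from the annotated TSS in bp, with transcription to the right. Colour gives the log2 ratio of +HOT to -HOT, red for higher and blue for lower in +HOT cells. Hatched bars are from KO2 only and the grey bar was not tested. The H3K4me1 bars that lie wholly under a blue H3K4me3 bar are red, and the outer bars of Cdc6 (-0.998) and Mcm6 (-1.06) are blue.

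At the MCM genes tested in both lines, the rises were 3.5-fold and 8.8-fold at Mcm2 and 2.7-fold to 6.3-fold at Mcm4, Mcm5 and Mcm7. Mcm2 had a short region (chr6:88848114-88848666) from 108 to 660 bp after the TSS, with 60 and 61.8 scaled reads in +HOT cells of KO1 and KO2, against 17 and 7 in -HOT cells (mean log2 ratio 2.37, adjusted p = 1.47e-05, limma). Mcm5 had 99 and 207 against 25 and 33 over chr8:77632809-77634661 (2.28, adjusted p = 7.52e-06), a region that covered 85.9% of its H3K4me3 region. With so few reads in -HOT cells the folds are imprecise, for Mcm2 with counting errors of 0.40 in KO1 and 0.57 in KO2 on the log2 scale. The standard error that limma gave its mean ratio was 0.281, drawn mostly from the spread of all tested regions. An adjusted p of H3K4me1 therefore does not show how closely the lines agreed at that region either.

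Mcm4 and Mcm7 each had a pair of H3K4me1 regions under 1 H3K4me3 region. On the Mcm4 side of its start (chr16:15636196-15637444) there were 89 and 99.1 scaled reads in +HOT cells of KO1 and KO2, against 18 and 37 in -HOT cells (1.82, adjusted p = 8.10e-05, limma). On the Prkdc side (chr16:15637798-15638650) there were 69 and 90.9 against 14 and 19 (2.21, adjusted p = 5.97e-06). They ended at -305 bp and began at 49 bp from the TSS of Mcm4, and no H3K4me1 region was called between them.

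At Mcm7, the region chr5:138611241-138613108 had 140 and 198 scaled reads in +HOT cells of KO1 and KO2, against 30 and 43 in -HOT cells (2.18, adjusted p = 6.63e-06, limma). The upstream one, chr5:138613428-138614162, had 44 and 54.5 against 15 and 12 (1.79, adjusted p = 6.33e-05). Counted from the second RefSeq start, they ran from 3 to 1870 bp after it and from 1051 to 317 bp before it, an arrangement like that of Mcm4.

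Cdc6 carried the only region that fell. The region over its TSS (chr11:98769117-98770167) had 92 and 118 scaled reads in +HOT cells of KO1 and KO2, against 28 and 24 in -HOT cells (1.97, adjusted p = 2.56e-05, limma). The next region (chr11:98770212-98770864), 747 to 1399 bp into the gene and across the downstream edge of H3K4me3, had 16 and 21.8 against 35 and 42 (log2 ratio -0.998, adjusted p = 0.00644). It fell in both lines, beside a neighbour that rose 3.3-fold and 4.9-fold. The call was lost without the read minimum (adjusted p = 0.104, limma) and without the block (adjusted p = 0.125).

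Cdt1 had the broadest H3K4me1 region of the set, with the most reads, and the smallest rise among the regions of MCM genes and loaders that rose and were tested in both lines. Its region chr8:125089874-125092894, of 3021 bp, ran from -2041 to 979 bp, past the upstream edge of H3K4me3, and had 236 and 305 scaled reads in +HOT cells of KO1 and KO2, against 105 and 137 in -HOT cells (1.15, adjusted p = 0.00208, limma). Per kb it had 34.8 and 45.3 scaled reads in -HOT cells of KO1 and KO2, above the range of 11.3 to 30.7 of the 9 regions inside H3K4me3.

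Gins1 had 50 and 82.7 scaled reads over chr2:150734988-150736058 in +HOT cells of KO1 and KO2, against 19 and 19 in -HOT cells (1.71, adjusted p = 0.000119, limma). Gins2 had the steepest rise, with 40 and 105 over chr8:123112261-123112966 against 8 and 12 (2.61, adjusted p = 3.22e-06). Its upstream region (chr8:123113458-123114021), beneath the H3K4me3 region that fell most, rose least, with 28 and 45.5 against 15 and 23 (0.91, adjusted p = 0.0124). That call was lost with a trend in limma, with edgeR, without the read minimum, without the block, and with the medians moved to 0 (adjusted p = 0.0640 to 0.247).

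**Figure D4:**
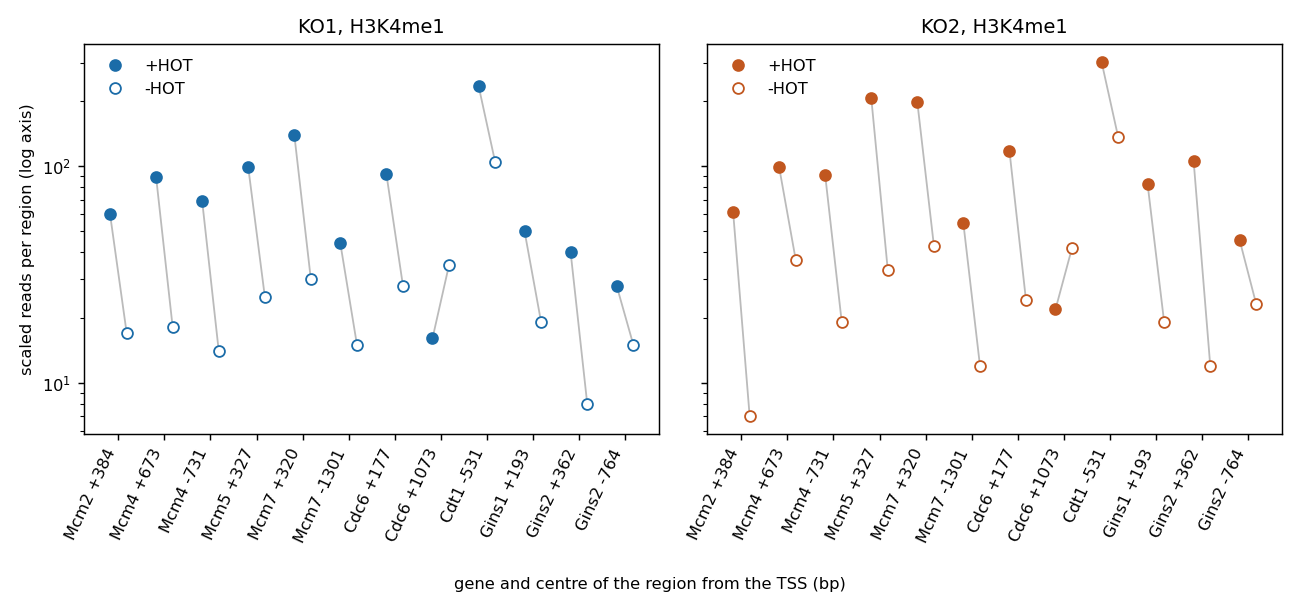
Scaled H3K4me1 reads of the 12 member regions in KO1 (left) and KO2 (right), on a log axis, each region named by its gene and the distance of its centre from the TSS in bp. Filled points are +HOT and open points -HOT libraries, 1 library each. Filled points lie above open ones in both lines except at Cdc6 +1073 (16 against 35 in KO1).

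The 9 member regions wholly inside an H3K4me3 region had mean log2 ratios of 1.71 to 2.61, while the 3 that cross an edge, of Cdc6, Cdt1 and Gins2, had -0.998, 1.15 and 0.91. Over all promoters, 91.3% of 4624 regions inside an H3K4me3 region rose, with a median of 1.71, and 0.692% fell. Of 8781 regions crossing an edge, 57.0% rose, with a median of 0.82, and 3.96% fell. By distance, regions centred between 0 and 500 bp after a TSS had a median of 1.35, and those between 1000 and 3000 bp 0.77.

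An H3K4me1 region lay over the annotated TSS at 5 of the 8 members with values in both lines, Mcm5, Mcm7, Cdc6, Cdt1 and Gins1, against 42.4% of 10628 genes. It did not at Mcm3 and Mcm6, whose regions in the KO2 table began 50 and 26 bp after the TSS, nor at the second RefSeq start of Mcm7. At Mcm2, Mcm4 and Gins2 the downstream region began 108, 49 and 9 bp after the TSS. Within 5000 bp of the 8 starts, the only H3K4me1 region outside every H3K4me3 region was 1 at Gins1, with 16 and 8.18 scaled reads in +HOT cells of KO1 and KO2 against 15 and 4 in -HOT cells, under the minimum.

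Mcm3 and Mcm6 had H3K4me1 values in KO2 alone, which have no replicate check and were not tested. At Mcm3, chr1:20809098-20810343 had 135 scaled reads in +HOT against 39 in -HOT cells (log2 ratio 1.76, counting error 0.26). At Mcm6, chr1:130253706-130256256 had 161 against 101 (0.67), while chr1:130256659-130257526, which shares 90 bp with the upstream edge of H3K4me3, had 26.4 against 56 (-1.06). As at Cdc6, the outer region was lower and the inner one higher in +HOT cells.

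The other replication genes were set beside the members from lists of 56 genes by role. Of these, 46 had a promoter H3K4me3 region, 45 were tested, 41 fell and 0 rose, beside 83.9% of all gene promoters that fell, with a median of -1.36 against -1.54 in the members and -1.19 over all gene promoters. All 7 tested genes of helicase activation and firing fell, with a median of -1.36 at Topbp1, which helps recruit Cdc45, between Donson (-1.60) and Mtbp (-0.90). All 11 tested polymerase and primase genes fell, around Pole4 (-1.72), between Pold4 (-2.10) and Pole3 (-1.06), and so did the 3 fork protection genes Clspn (-1.62), Timeless (-1.57) and Tipin (-1.13).

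Dna2, a nuclease and helicase of lagging strand processing, had the lowest value of the lists. It had 21 and 89 scaled reads in +HOT cells of KO1 and KO2, against 133 and 554 in -HOT cells (-2.62, adjusted p = 9.54e-10, limma). The other 8 tested genes of clamp, clamp loader and lagging strand fell, with values between -1.53 (Rfc5) and -1.03 (Rfc1), with Rfc2 at -1.26 in the middle. Lig1, with 5 and 10 scaled reads in +HOT and 3.0 and 40.6 in -HOT cells, was under the minimum.

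The 4 genes that did not pass were in the lists nearest to licensing. Of 9 tested genes of origin recognition and loading, 7 fell, from Mcm9 (-1.45) over Orc2 (-0.94), while Orc3 (-0.75, adjusted p = 0.0630, limma) and Orc6 (-0.75, adjusted p = 0.0632) did not pass. Of 6 tested inhibitors and turnover factors, 4 fell, from Gmnn (-1.78), which encodes geminin, over Fbxo5 (-1.30). Fbxo5 is the lower of the middle pair, and the list median was -1.14. Cul4a (-0.65, adjusted p = 0.104) and Ddb1 (-0.66, adjusted p = 0.0951), both of the ubiquitin ligase that degrades Cdt1, did not pass. With the medians moved to 0, these 2 rose (adjusted p = 0.0255 and 0.0295, limma) and Dna2 and Pold4 fell. The difference between the members and any of these lists was not tested.

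**Figure D5:**
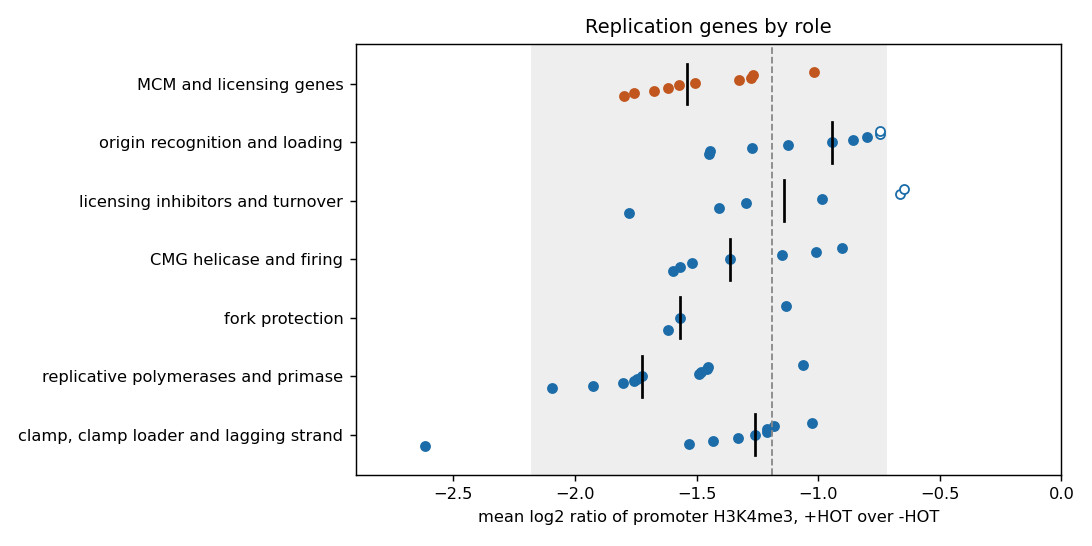
Mean log2 ratio of promoter H3K4me3, +HOT over -HOT, for the members (top row) and for 6 lists of other replication genes. Each point is 1 gene, filled where it passed limma at an adjusted p of 0.05 and open where it did not, and black bars are list medians. The grey band spans the 10th to 90th percentile of all gene promoters (-2.18 to -0.72) and the dashed line is their median (-1.19). All filled member points lie between -1.80 and -1.02.

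H3K4me1 over the promoters of the other replication genes rose at 39 of 53 tested regions and fell at 2, with a median of 1.37, beside 66.1% that rose and 2.94% that fell over the promoters of all genes. Ddb1 showed both, with 79 and 100.0 scaled reads in +HOT cells of KO1 and KO2 against 19 and 20 in -HOT cells near its start (2.13, adjusted p = 8.76e-06, limma) and 57 and 52.7 against 77 and 121 further into the gene (-0.81, adjusted p = 0.0379). Dna2 had a region upstream with 14 and 20 against 27 and 52 (-1.12, adjusted p = 0.00324). The rise at Ddb1 met the read minimum through +HOT cells only, and the fall at Dna2 through -HOT cells only. Without the read minimum, 27 of 63 regions of these genes rose. With more than 20 scaled reads required in both conditions of each line, 30 of 42 rose.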

How the data were processed

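Reads were aligned to mm9 with BWA and regions called with Macs2 by the authors, and Homer gave the annotation. The deposited signal values are counts of reads in a region, which the authors had scaled down to the lower coverage of a line, and 100% of the values used were whole reads, within 0.001, once multiplied by 1 factor per library. The 8 KO libraries, of 20, were analysed. The columns of fold changes and the lists of lost and gained regions, which hold the authors' comparisons, were not used.

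A region was tested if at least 1 condition of each line had more than 20 scaled reads. limma 3.58.1 (R 4.3.3) was run on log2(value + 1) and the line entered as a block, since both conditions of a line share its cells and scaling. The correlation of the deviations of both libraries of a line was 0.587 for H3K4me3 and 0.580 for H3K4me1. A gene's promoter region is the one within 3000 bp of its TSS with the highest mean -HOT value over both lines. In the KO1 table of H3K4me1, 5615 regions on chromosome 1 (19197749 to 145960211) had damaged rows and were left out. The tests were also run on simulated data in which most regions did not change and no shift was shared by a library. H3K4me3 differs from that setting, since most of its tested regions fell. Counting errors cover counting only. Sequence came from the mm9 reference.

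The members and lists were chosen with earlier results of these data known. Named were all members, their divergent partners, of each other list the lowest, median and highest gene and those whose call differed, and the 5 most similar promoters. Lig1 was added after its values were seen. The alternatives were another pseudocount, read minimum or region per gene, no block, a median of 0, limma with a trend, edgeR 4.0.16 on recovered reads and each line alone.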

Additional observations from a re-analysis of the deposited data

How the results depend on the processing

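With 2 lines per mark, the limits are the number of replicates and, for H3K4me1, the few reads in -HOT cells. Without the replicate block that pairs the libraries of a line, limma passed 0 of 10 member promoters for H3K4me3 (0 also at an unadjusted p under 0.05, adjusted p = 0.528 to 0.612), 0 of the other replication genes, 9 of 12 member H3K4me1 regions that rose and 0 that fell, and 28 H3K4me1 regions of the other genes. With the block, edgeR on recovered reads passed all 10 member promoters.

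With the medians of both lines moved to 0, 0 member promoters and 2 of the other replication genes fell in H3K4me3, and Mcm3 (0.019), Mcm4 (0.077), Mcm7 (0.32) and Gins2 (0.066) turned in direction without passing. Over all regions, that setting gave 3744 that fell and 1519 that rose in place of 13954 and 12. For H3K4me1 at the members, 7 of 7 tested regions rose with more than 50 scaled reads and 4 of 4 with more than 20 in both conditions, since fewer regions were tested. The fall of the outer Cdc6 region was not passed without the read minimum (0 regions fell, adjusted p = 0.104) or the block (adjusted p = 0.125), and was not tested under the stricter minimums (0 and 0). Mcm7 H3K4me3 (adjusted p = 0.0861) and Cdt1 H3K4me1 (0.0717) were also not passed without the read minimum. With either line alone, as values past a log2 ratio of 0.58, 10 to 10 member promoters fell, 11 to 11 H3K4me1 regions rose and 1 to 1 fell, and among the other genes 43 to 46 promoters fell and 37 to 39 H3K4me1 regions rose. Another pseudocount, a trend, edgeR and the region nearest the TSS left the counts at members within 1.5 times.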
